A study of Rattus norvegicus with 50 samples.

Results

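The effect of nevirapine on the liver's response to galactosamine was read 48 h after the galactosamine injection, as the difference between rats given both drugs (the combination) and rats given galactosamine alone. The 5 rats compared, of 50 in the series, are 3 combination rats (rat70, rat71 and rat72) and 2 galactosamine rats (rat26 and rat27), chosen by their sample titles. All probe sets that map to 1 gene symbol were used, 20826 of 31099, which hold 14217 genes. Each gene was described by its probe set with the highest mean signal.

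All rats were female Brown Norway animals (Bn/Crl, RT1n haplotype) aged 9 to 11 weeks, and RNA came from whole frozen liver taken 2 h after the last oral dose. Combination rats had nevirapine by mouth at 150 mg/kg for 1 day and 100 mg/kg for 2 days, then, after 1 day without drug, at 75 mg/kg for 3 days. They received a single intraperitoneal dose of galactosamine, 750 mg/kg, on day 7 and stayed on nevirapine, so that by 48 h they had had 10 oral doses over 9 days. Galactosamine rats had the same injection and sham oral doses. Nevirapine before and nevirapine after the injection therefore cannot be told apart. Further groups of 3 rats each served as points of comparison: combination and galactosamine rats at 24 h, nevirapine alone at 48 h (3 doses) and at 15 d (16 doses over 15 days), and vehicle rats of the same times. The nevirapine-only rats are labelled with the same schedule of 150, 100 and 75 mg/kg. The labels do not say how the rats were spread over litters or days, so p-values do not account for either. The p-values and standard errors use the spread between rats within groups, pooled over all groups of the series. They do not measure the spread of the compared rats alone.

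Nevirapine is an antiretroviral drug known to induce liver enzymes that the drug-sensing nuclear receptors CAR (Nr1i3) and PXR (Nr1i2) control. These receptors switch on cytochromes P450, conjugating enzymes and drug transporters. Galactosamine is taken up by hepatocytes and ties up their uridine nucleotides, so that RNA and glycoprotein synthesis fail and cells die. Surviving hepatocytes then show stress responses, loss of metabolic functions and regrowth.

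The labelled tissue was checked against its markers. By group mean, all 29 genes of secreted hepatocyte proteins were above the background level of log2 4.37, the highest mean of 27 bacterial control probe sets. Their summed signal was log2 17.55 to 17.75 in combination rats, 17.61 to 17.66 in galactosamine rats and 17.78 to 17.80 in vehicle rats. Markers of other tissues differed too. Of 12 pancreatic acinar markers 3 were called higher in combination rats (25%) and 0 lower. Of 11 muscle and adipose markers 4 were called higher (36.4%) and 1 lower (9.09%), against 11.6% and 16.9% of all genes. In both groups 8 and 7 of these were below background. The summed pancreatic signal was 9.90 to 9.98 in combination rats, 9.32 to 9.44 in galactosamine rats and 9.85 to 9.96 in vehicle rats. GAPDH probe sets at the 3′ and the 5′ end, whose log2 difference grows as RNA degrades, differed by 0.293 to 0.348 in combination rats, 0.130 to 0.145 in galactosamine rats and 0.483 to 0.744 in vehicle rats. These ranges do not overlap, and their part in the results was tested only by a fit with this difference as a covariate, which called 4062 genes. The combination rats differed more among themselves (mean array correlation 0.985 to 0.987) than the galactosamine rats (0.996). In whole liver, fewer cells of a type and less RNA per cell cannot be told apart.

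In combination livers 4051 genes passed limma's test at an adjusted p under 0.05 (28.5% of those tested), 1651 of them higher (11.6%) and 2400 lower (16.9%) than in galactosamine livers. The rats of both groups did not overlap in 7331 genes (51.6%), and 3926 genes both passed and did not overlap (27.6%). With only 2 galactosamine rats the count leaned on each of them: it was 2449 without rat26 and 2284 without rat27. A fit of the 5 rats alone called 1760 genes.

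**Figure D1:**
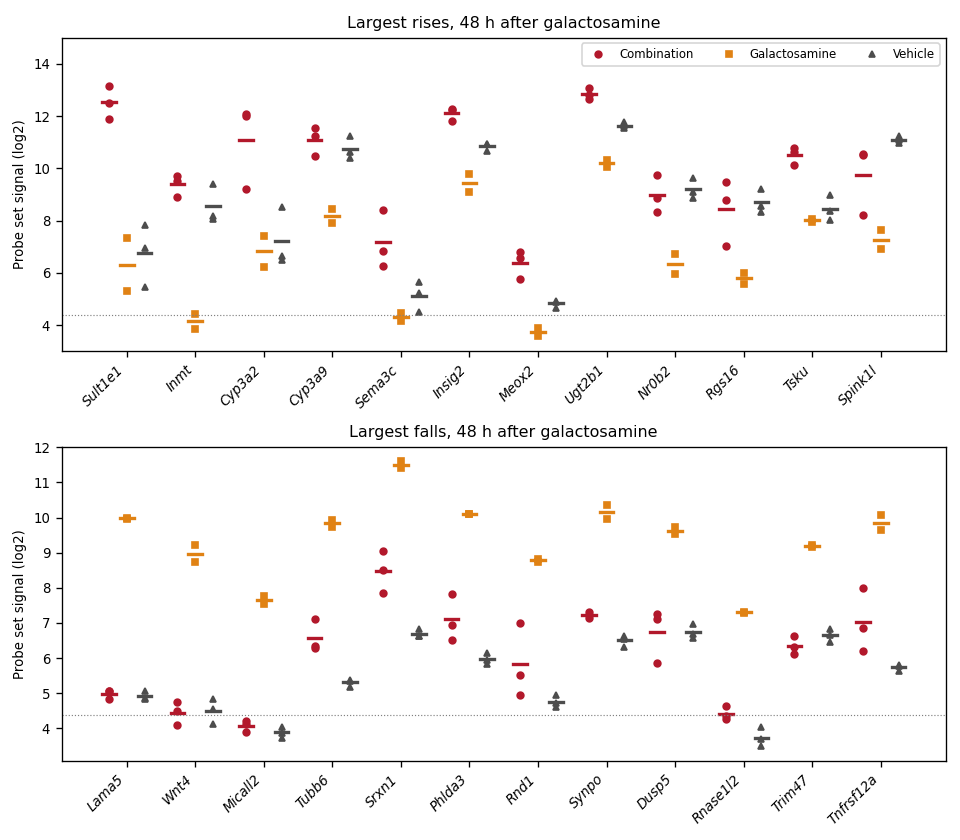
Probe set signal (log2) of the 12 largest rises and 12 largest falls, with 1 point per rat, a bar at each group's mean, and combination left of galactosamine and vehicle. The dotted line is the background level of log2 4.37. For each gene the 3 combination rats lie on 1 side of the 2 galactosamine rats, which the rule of selection required.

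The values that follow are log2 probe set signals. Combination rats are in the order rat70, rat71, rat72 and galactosamine rats in the order rat26, rat27. Changes are log2 differences of combination minus galactosamine ± the fit's standard error. The means in these changes are of 3 and 2 rats, while the standard error uses the spread pooled over all groups.

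The largest rise was that of Sult1e1, the sulfotransferase that inactivates estrogens. Its signal was 13.16, 12.51 and 11.89 in combination rats, against 7.32 and 5.30 in galactosamine rats and 5.47 to 7.83 in vehicle rats. The change was 6.21 ± 0.74 (adjusted p = 3.08e-08), and combination rats lay above both other groups. Cyp3a2, a drug-oxidizing cytochrome P450 that PXR induces, had 12.01, 12.08 and 9.20 in combination rats, against 6.22 and 7.42 in galactosamine rats and 6.48 to 8.52 in vehicle rats. It rose by 4.28 ± 0.84 (adjusted p = 0.000157), with rat72 well below its 2 group mates. Cyp3a9, of the same family, had 11.23, 10.47 and 11.54 in combination rats, against 7.90 and 8.46 in galactosamine rats and 10.38 to 11.25 in vehicle rats. Here the combination rats lay near vehicle and the galactosamine rats below it, a difference of 2.90 ± 0.34 (adjusted p = 1.61e-08). Cyp3a genes resemble each other closely, and whether their probes also read a relative was not tested.

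Of 25 measured CAR and PXR targets and receptors, 17 rose (68%, against 11.6% of all genes) and 1 fell, Cyp2b3 (-0.42), named after its value was seen, as were the receptors. Their median change was 1.20, against 0.01 over all genes. Without rat26, 13 rose, and without rat72, 20. Ugt2b1, a glucuronosyltransferase for steroids and drugs, had 12.81, 13.05 and 12.63 in combination rats, against 10.32 and 10.05 in galactosamine rats and 11.53 to 11.77 in vehicle rats, a rise of 2.64 ± 0.23 (adjusted p = 1.56e-11). The next 4 members, picked after their values were seen, also separated the groups with no overlap. The carboxylesterase Ces2c rose by 2.28 ± 0.28, the drug exporter Abcb1a by 1.87 ± 0.20, the conjugate exporter Abcc3 by 1.78 ± 0.31 and the uptake carrier Slco1a4 by 1.95 ± 0.27. The receptors themselves did not pass: Nr1i2 differed by -0.39 and Nr1i3 by -0.05.

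**Figure D2:**
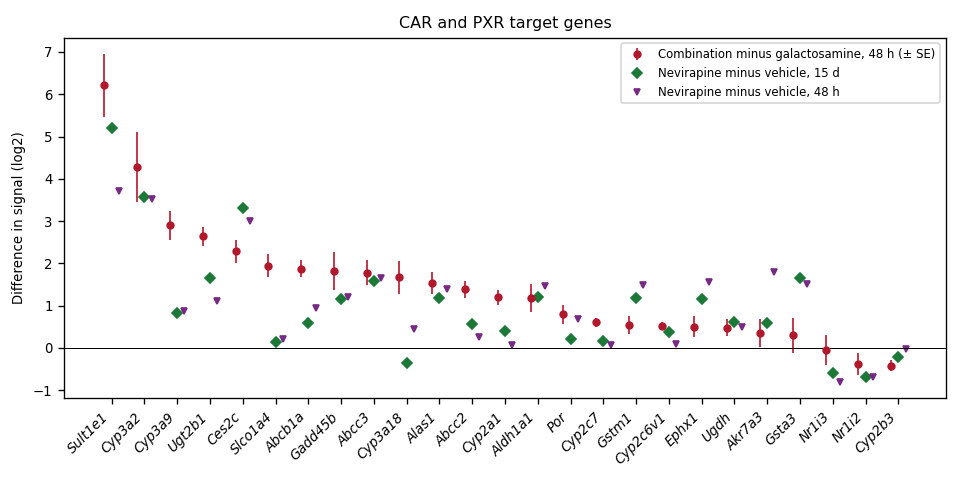
Difference in log2 signal for the 25 CAR and PXR targets and receptors: combination minus galactosamine at 48 h (circles, ± SE), nevirapine minus vehicle at 15 d (diamonds) and nevirapine minus vehicle at 48 h (triangles). Sult1e1 and Cyp3a2 are high in each comparison, while for Cyp3a9, Slco1a4 and Abcb1a the circle stands above both other symbols.

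Whether nevirapine changed a gene after galactosamine by another amount than nevirapine alone did was tested as a difference of differences. Against nevirapine alone at 15 d, 1895 genes passed (13.3%), 773 in the positive direction (5.44%) and 1122 in the negative (7.89%). Against nevirapine alone at 48 h, 4770 passed (33.6%), 1991 positive (14%) and 2779 negative (19.5%). The GAPDH difference was 0.860, 0.014 and 0.098 in the nevirapine rats at 48 h, against 0.483 to 0.744 in their vehicle rats. With this difference as a covariate 4374 genes passed against 48 h. The dosing days differ: 10 doses in the combination rats, against 16 and 3. Dose levels differ too: by the labelled schedule the 3 doses fall in the days at 150 and 100 mg/kg. Combination rats had by then reached 75 mg/kg. Among the CAR and PXR list, 7 of 25 passed in the positive direction and 0 in the negative against 15 d, and 8 and 3 against 48 h.

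Insig2, which holds back sterol synthesis, was among these genes. It had 12.27, 12.24 and 11.80 in combination rats, against 9.10 and 9.79 in galactosamine rats and 10.67 to 10.92 in vehicle rats. Its combination minus galactosamine difference was 2.66 ± 0.24 (adjusted p = 4.62e-11), beside 0.60 for nevirapine minus vehicle at 15 d, and the difference between both was 2.07 ± 0.32 (adjusted p = 2.35e-05). For Cyp3a9 the 2 differences were 2.90 and 0.82, which differed by 2.08 ± 0.45 (adjusted p = 0.00172). Ugt2b1 had 2.64 and 1.65, which differed by 0.99 ± 0.30 (adjusted p = 0.0259). That call was lost without rat27 (adjusted p = 0.147), rat71 (0.0758), rat43 (0.0644) or rat14 (0.0771). For Sult1e1 the differences were 6.21 and 5.20 (adjusted p = 0.548 for their difference), and for Cyp3a2 4.28 and 3.58 (adjusted p = 0.732), so a departure from nevirapine alone was not detected at this number of rats. For Ces2c they were 2.28 and 3.31 (adjusted p = 0.0666).

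Inmt, an N-methyltransferase of small amines, had 9.53, 9.72 and 8.91 in combination rats, against 4.42 and 3.86 in galactosamine rats and 8.06 to 9.40 in vehicle rats. The galactosamine mean of 4.14 is under the background level, so the rise was at least 32.4-fold (adjusted p = 1.08e-08). The combination rats lay within or above the vehicle range, and the galactosamine rats lay far below it. Its difference of differences against 15 d was 3.61 ± 0.80 (adjusted p = 0.00214), with that one group mean under background. Meox2, a homeobox factor, rose at least 4.02-fold and was 6.81, 6.57 and 5.75 in combination rats, against 3.56 and 3.87 in galactosamine rats and 4.66 to 4.93 in vehicle rats. Tsku, a secreted proteoglycan of liver, was 10.78, 10.62 and 10.14 in combination rats, against 8.06 and 7.96 in galactosamine rats and 8.01 to 8.97 in vehicle rats, a rise of 2.50 ± 0.34. Spink1l, labelled as a protease-inhibitor gene, differed among combination rats, with 8.20 in rat70 and 10.54 and 10.51 in the other two, against 7.62 and 6.90 in galactosamine rats and 10.97 to 11.22 in vehicle rats. It rose by 2.49 ± 0.53 (adjusted p = 0.00045), but not in a fit of the 5 rats alone (adjusted p = 0.0636).

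Of 32 cytochromes outside the CAR and PXR list, 13 rose (40.6%, against 11.6% of all genes), 0 fell and 19 did not pass, with a median of 0.32. In a fit of the 5 rats alone 8 rose, and without rat26 9 rose and 1 fell. Cyp2a3 had 7.04, 6.73 and 5.55 in combination rats, against 4.18 in both galactosamine rats and 4.15 to 4.42 in vehicle rats, a rise of at least 4.20-fold (adjusted p = 1.29e-07). Cyp2j3 and Cyp2j4, which oxidize arachidonic acid, rose by 1.78 ± 0.30 and 1.47 ± 0.29. For Cyp2j3 the combination rats (8.12, 8.84 and 8.63) lay above the galactosamine rats (6.51 and 7.00), and vehicle rats had 8.66 to 9.48. Alas1, the rate-limiting enzyme of the heme that P450s need, had 12.28, 12.19 and 12.39 in combination rats, against 10.66 and 10.84 in galactosamine rats and 10.80 to 11.27 in vehicle rats, a rise of 1.54 ± 0.26 (adjusted p = 1.78e-05). Nevirapine alone changed Alas1 by 1.18 at 15 d, and the difference between both changes did not pass (adjusted p = 0.53). Of 17 heme and iron genes 5 rose (29.4%, against 11.6% of all genes) and 1 fell (5.88%, against 16.9%), the uroporphyrinogen synthase Uros (-0.97 ± 0.23, but -0.02 on its other probe set).

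Bile acid genes moved in both directions. Of 23, 6 rose (26.1%, against 11.6% of all genes) and 3 fell (13%, against 16.9%), with a median of 0.20. Without rat26, 3 rose and 1 fell, and without rat27, 5 rose and 1 fell. Nr0b2, which encodes the repressor SHP, had 8.85, 9.73 and 8.33 in combination rats, against 5.95 and 6.72 in galactosamine rats and 8.88 to 9.64 in vehicle rats, and rose by 2.64 ± 0.39 (adjusted p = 1.9e-06). Abcb11, the bile salt export pump, had 11.19, 11.30 and 11.00 in combination rats, against 9.34 and 9.55 in galactosamine rats and 10.77 to 11.08 in vehicle rats, and rose by 1.72 ± 0.18 (adjusted p = 2.24e-09). In both genes the combination rats overlap the vehicle rats, and the galactosamine rats stand apart below. Nevirapine alone changed Nr0b2 by 0.39 and Abcb11 by 0.18 at 15 d, and the departures from these were 2.25 ± 0.52 (adjusted p = 0.00325) and 1.54 ± 0.24 (adjusted p = 3.4e-05).

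Cyp7a1, the rate-limiting enzyme of bile acid synthesis that SHP represses, had 9.04, 8.30 and 10.62 in combination rats, against 12.13 and 12.06 in galactosamine rats and 9.53 to 9.81 in vehicle rats. It was lower by 2.77 ± 0.77 (adjusted p = 0.0066), and all 3 combination rats lay below both galactosamine rats. The call was lost without rat26 (adjusted p = 0.0543), rat27 (0.0501) or rat71 (0.0506). Cyp8b1, the sterol 12-alpha-hydroxylase, did not pass (-1.40 ± 0.62, adjusted p = 0.0883).

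Among hepatocyte factors and secreted proteins the changes were split. The factors were called 5% higher and 20% lower and the secreted proteins 20.7% and 3.45%, against 11.6% and 16.9% of all genes. Foxa3, a forkhead factor of hepatocyte genes, had 6.91, 7.55 and 6.78 in combination rats, against 9.08 and 9.06 in galactosamine rats and 7.19 to 7.69 in vehicle rats (-1.99 ± 0.22, adjusted p = 3.61e-09). Esrra, the estrogen-related receptor alpha of mitochondrial genes, fell by 1.45 ± 0.23. In all, 1 of 20 hepatocyte transcription factors rose and 4 fell (2 without rat26). The lipoprotein gene Apoa4 rose by 1.77 ± 0.29, with 11.06, 11.09 and 12.05 in combination rats, against 9.75 and 9.51 in galactosamine rats and 11.48 to 11.94 in vehicle rats, and Crp, an acute-phase protein, by 1.06 ± 0.24. Of 29 secreted hepatocyte proteins 6 rose and 1 fell, with 2 rising without rat27.

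The largest fall was in the laminin alpha-5 gene Lama5, a basement membrane chain, with 5.07, 5.07 and 4.84 in combination rats, against 9.98 and 9.97 in galactosamine rats and 4.85 to 5.06 in vehicle rats. It fell by 4.98 ± 0.38 (adjusted p = 1.31e-12), to the vehicle range. Its 2 other probe sets did not show this (-0.11 and -0.09), so the value rests on 1 probe set. Wnt4, a secreted Wnt ligand, had 4.48, 4.09 and 4.74 in combination rats, against 9.22 and 8.73 in galactosamine rats and 4.13 to 4.83 in vehicle rats, and fell by 4.54 ± 0.50. Micall2, a junction scaffold, was at least 9.73-fold lower, and Rnase1l2, named as a ribonuclease gene, fell by 2.88 ± 0.24. In these 4 genes the galactosamine rats stood far above both other groups.

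Of 10 tubulin genes 2 fell (20%, against 16.9% of all genes) and 0 rose. Tubb6, a beta-tubulin, had 7.10, 6.28 and 6.35 in combination rats, against 9.94 and 9.73 in galactosamine rats and 5.19 to 5.39 in vehicle rats, so that combination rats lay between both other groups. It fell by 3.26 ± 0.25, while its other probe set gave 0.10. Synpo, an actin-binding protein, fell by 2.93 ± 0.22 on 1 probe set, against 0.28 and 0.10 on its other 2. The keratins Krt8 and Krt18, the filament pair of hepatocytes and bile duct cells, changed by -1.85 ± 0.26 and -1.93 ± 0.22. Krt18 had 11.76, 11.15 and 10.96 in combination rats, against 13.22 in both galactosamine rats and 10.33 to 10.63 in vehicle rats. They led a list of 18 duct and progenitor markers of which 4 fell (2 without rat27) and 1 rose. The shares of that list were 22.2% lower and 5.56% higher, against 16.9% and 11.6% of all genes. That list's summed signal was 12.05 to 12.81 in combination rats, 14.02 to 14.05 in galactosamine rats and 11.51 to 11.76 in vehicle rats. This sum is of unlogged signals, so that bright genes such as Krt18 weigh most in it. The list's median change was -0.20, 13 of its genes did not pass, and 6 were below background in each group.

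Tnfrsf12a, the TWEAK receptor that rises on injured hepatocytes, had 7.99, 6.86 and 6.21 in combination rats, against 10.06 and 9.64 in galactosamine rats and 5.62 to 5.81 in vehicle rats (-2.83 ± 0.35, adjusted p = 7.69e-08). Rnd1, a small GTPase that loosens adhesion, had 6.99, 5.53 and 4.94 in combination rats, against 8.74 and 8.83 in galactosamine rats and 4.62 to 4.95 in vehicle rats (-2.96 ± 0.59, adjusted p = 0.000193). In both genes rat70 was the highest combination rat and still below the galactosamine rats. Dusp5, a phosphatase that ends ERK signals, fell by 2.88 ± 0.47, and Trim47, a ubiquitin ligase, changed by -2.84 ± 0.34 on its brightest probe set, with 0.31 and -1.01 on its other 2.

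Of 19 p53 targets 10 fell (52.6%, against 16.9% of all genes) and 4 rose (21.1%, against 11.6%), with a median of -0.47. Only 1 rose without rat26, rat27 or rat71. Phlda3, a p53-induced brake on Akt, had 7.84, 6.94 and 6.52 in combination rats, against 10.09 and 10.12 in galactosamine rats and 5.84 to 6.14 in vehicle rats, and fell by 3.00 ± 0.29 (adjusted p = 4.1e-10). Aen, a p53-induced nuclease, fell by 2.37 ± 0.22, and its second probe set changed by -2.01. Cdkn1a, the cell cycle inhibitor p21, had 8.54, 7.02 and 6.02 in combination rats, against 8.97 and 9.14 in galactosamine rats and 5.85 to 6.81 in vehicle rats. It fell by 1.86 ± 0.37 (adjusted p = 0.000211), but did not pass in a fit of the 5 rats alone (adjusted p = 0.106). Sesn2, which restrains mTORC1, fell by 1.96 ± 0.22, but its second probe set changed by 0.39. Within the list rat70 lay nearest to the galactosamine rats for Phlda3, Cdkn1a and, with 8.31 against 7.18 and 7.41 in its group mates, for Ccng1, which was named after its values were seen.

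The ATF4 list, the response to amino acid lack and ER stress, had 9 of 22 genes lower (40.9%, against 16.9% of all genes) and 2 higher (9.09%, against 11.6%). The median was -0.48, and 5 were lower without rat26. Asns, the asparagine synthetase, had 4.97, 4.43 and 4.38 in combination rats, against 6.39 and 6.15 in galactosamine rats and 3.12 to 3.46 in vehicle rats, and fell by 1.68 ± 0.26 (adjusted p = 4.21e-06). Psat1, of serine synthesis, had 6.83, 4.96 and 5.39 in combination rats, against 7.46 and 7.62 in galactosamine rats and 4.78 to 5.25 in vehicle rats, and fell by 1.81 ± 0.36 (adjusted p = 0.000231). That call was lost in a fit of the 5 rats alone (adjusted p = 0.0608). Atf3, a stress factor, fell by 2.24 ± 0.69 (adjusted p = 0.0135), but not without rat26 (adjusted p = 0.153) or rat72 (0.056). Of 22 ER chaperones 2 rose (9.09%) and 1 fell (4.55%), with 4 falling without rat70. Of 13 heat shock genes 1 rose and 1 fell (7.69% each), with 4 rising without rat72. Of 16 apoptosis genes 6 fell (37.5%, against 16.9% of all genes) and 1 rose (6.25%, against 11.6%). With the mean of a gene's probe sets 4 fell and 1 rose.

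NRF2 targets did not move one way: 3 of 20 rose and 4 fell, and 1 rose and 2 fell without rat26. With all rats the shares were 15% higher and 20% lower, near the 11.6% and 16.9% of all genes. Srxn1, which repairs peroxiredoxins, had 8.51, 9.05 and 7.85 in combination rats, against 11.60 and 11.41 in galactosamine rats and 6.63 to 6.82 in vehicle rats. It fell by 3.04 ± 0.47 (adjusted p = 3.91e-06) and stayed above vehicle. Its other 2 probe sets changed by -2.69 and 0.15, and the mean of its probe sets by -1.86. Gstp1, a glutathione transferase low in normal rat hepatocytes, fell by 1.92 ± 0.30. Me1, the NADPH-forming malic enzyme, rose instead, with 8.75, 8.95 and 7.97 in combination rats, against 6.30 and 6.37 in galactosamine rats and 6.93 to 7.43 in vehicle rats (2.22 ± 0.32, adjusted p = 1.55e-06).

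Immediate early genes were called at shares near those of all genes, 8% higher and 20% lower, against 11.6% and 16.9%. Of 25, 2 rose and 5 fell, and 1 rose and 3 fell without rat27. Jun, the AP-1 subunit, had 8.58, 9.26 and 9.29 in combination rats, against 6.84 and 6.98 in galactosamine rats and 8.68 to 9.52 in vehicle rats, a rise of 2.13 ± 0.44 (adjusted p = 0.000315) that its other 2 probe sets share (1.95 and 1.93). The galactosamine rats were the low ones. Rgs16, a regulator of G-protein signals with a strong daily rhythm in liver, likewise had 7.03, 8.78 and 9.46 in combination rats, against 5.57 and 6.01 in galactosamine rats and 8.31 to 9.22 in vehicle rats (2.63 ± 0.64, adjusted p = 0.00191).

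**Figure D3:**
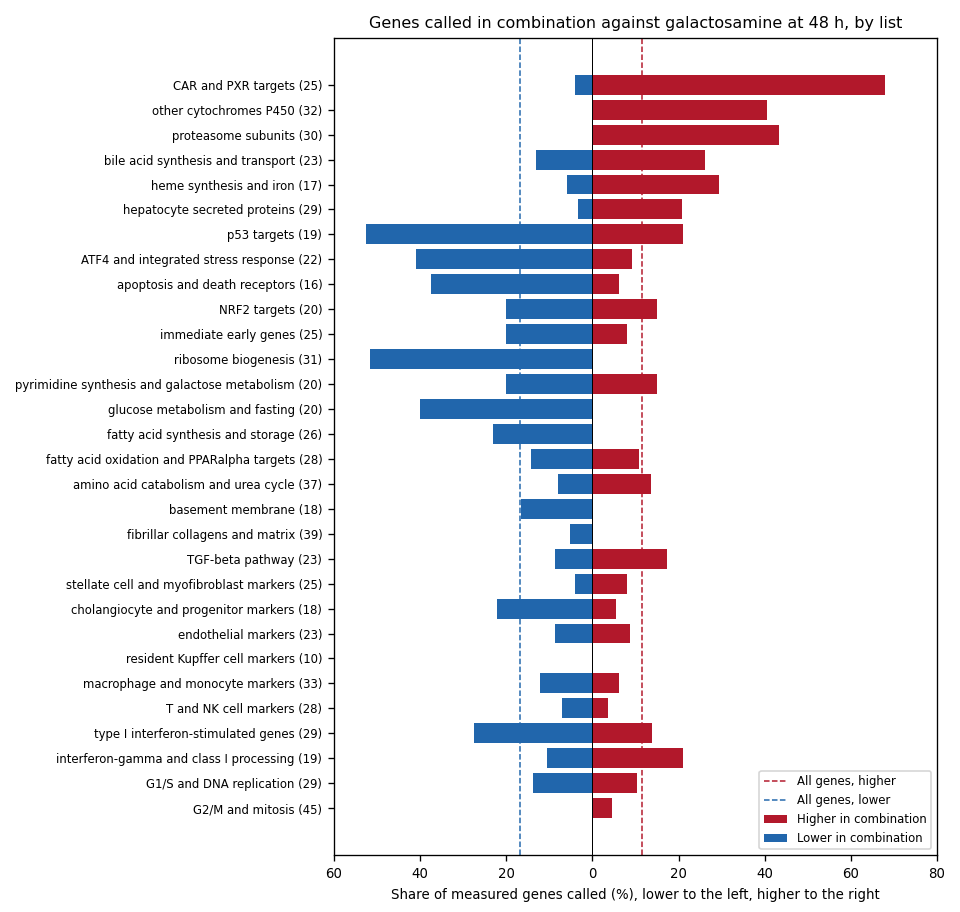
Share of each list's measured genes called higher (bars to the right) or lower (bars to the left) in combination against galactosamine livers at 48 h, with the number measured in brackets. Dashed lines mark the shares over all genes, 11.6% higher and 16.9% lower, and the CAR and PXR, p53 and ribosome biogenesis lists reach farthest beyond them.

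Of 31 ribosome biogenesis genes 16 fell (51.6%, against 16.9% of all genes), 0 rose and 15 did not pass, with a median of -0.48, and 8 fell in a fit of the 5 rats alone. Pes1, of the large-subunit assembly complex PeBoW, had 7.69, 6.98 and 7.15 in combination rats, against 8.69 and 8.73 in galactosamine rats and 7.14 to 7.34 in vehicle rats, and fell by 1.43 ± 0.15 (adjusted p = 1.75e-09). Polr1a, the largest subunit of RNA polymerase I, had 6.75, 6.71 and 6.44 in combination rats, against 7.88 and 7.99 in galactosamine rats and 6.18 to 6.60 in vehicle rats, and fell by 1.30 ± 0.15 (adjusted p = 2e-08). Combination rats lay at or near the vehicle range and the galactosamine rats above it. Polymerase I subunit Polr1e fell by 1.15 ± 0.18 and Noc4l, of small-subunit assembly, fell by 1.17 ± 0.18.

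Promoters of some of the named genes were searched for motifs. RefSeq windows (GRCr8, 250 bases before to 50 after the start) were at hand for 28 of the 31 ribosome biogenesis genes. The E-box CACGTG, the letters read by MYC, was in 10 of these (35.7%), against 6.65% of 27457 windows. The ATF4 element TGATGNAA, searched on both strands, was in 6 of 20 ATF4 list windows (30%), against 3.82% of all. The NR5A2 letters CAAGGNCA were in 4 of 18 bile acid windows (22.2%), against 6.41%. TGACNNNGC, the core of the antioxidant response element, was in 3 of 18 NRF2 list windows (16.7%) and 5 of 26 proteasome windows (19.2%), against 12.2%. The CCAAT box was in 14 of 26 proteasome windows (53.8%), against 37.7%. The 6 pairs of motif and list were chosen with the values known, and a match is a description of letters, not a site in use. Called members with a window had the match in 6 of 15 ribosome biogenesis, 2 of 9 ATF4 list and 1 of 7 bile acid genes. Shown, with the motif in capitals, are up to 3 called members with a match per motif, for ribosome biogenesis (Pes1, Ebna1bp2, Mybbp1a), the ATF4 list (Trib3, Fgf21) and bile acids (Nr0b2).
Pes1, chr14:83074096-83074395, plus strand: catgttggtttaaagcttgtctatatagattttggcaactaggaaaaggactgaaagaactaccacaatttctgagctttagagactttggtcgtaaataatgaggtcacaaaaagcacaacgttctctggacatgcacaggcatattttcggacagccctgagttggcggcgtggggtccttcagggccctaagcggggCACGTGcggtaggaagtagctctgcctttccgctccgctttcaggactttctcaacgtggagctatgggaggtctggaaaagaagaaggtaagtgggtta
Ebna1bp2, chr5:137433284-137433583, plus strand: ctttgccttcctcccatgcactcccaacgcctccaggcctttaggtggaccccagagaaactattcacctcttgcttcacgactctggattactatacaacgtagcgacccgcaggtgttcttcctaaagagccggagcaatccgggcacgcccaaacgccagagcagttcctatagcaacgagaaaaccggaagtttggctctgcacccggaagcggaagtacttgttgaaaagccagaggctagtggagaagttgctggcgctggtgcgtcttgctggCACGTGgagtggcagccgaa
Mybbp1a, chr10:57555208-57555507, plus strand: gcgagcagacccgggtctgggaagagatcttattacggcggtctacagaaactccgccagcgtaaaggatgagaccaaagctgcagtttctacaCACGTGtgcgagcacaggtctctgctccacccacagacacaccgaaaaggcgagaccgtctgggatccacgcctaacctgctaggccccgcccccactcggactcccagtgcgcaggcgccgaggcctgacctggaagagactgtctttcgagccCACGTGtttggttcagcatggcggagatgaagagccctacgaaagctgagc
Trib3, chr3:161275484-161275783, minus strand: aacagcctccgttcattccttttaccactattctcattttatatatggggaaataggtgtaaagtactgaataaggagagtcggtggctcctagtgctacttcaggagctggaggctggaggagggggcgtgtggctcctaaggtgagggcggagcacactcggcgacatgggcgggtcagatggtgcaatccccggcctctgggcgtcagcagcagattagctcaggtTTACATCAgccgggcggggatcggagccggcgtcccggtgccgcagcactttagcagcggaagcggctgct
Fgf21, chr1:105221327-105221626, minus strand: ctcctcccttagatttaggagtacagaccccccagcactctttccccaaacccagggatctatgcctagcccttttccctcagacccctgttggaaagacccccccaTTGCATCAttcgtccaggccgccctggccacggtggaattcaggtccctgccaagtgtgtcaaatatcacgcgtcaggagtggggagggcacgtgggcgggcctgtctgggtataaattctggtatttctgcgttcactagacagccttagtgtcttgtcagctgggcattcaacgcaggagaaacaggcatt
Nr0b2, chr5:151062910-151063209, plus strand: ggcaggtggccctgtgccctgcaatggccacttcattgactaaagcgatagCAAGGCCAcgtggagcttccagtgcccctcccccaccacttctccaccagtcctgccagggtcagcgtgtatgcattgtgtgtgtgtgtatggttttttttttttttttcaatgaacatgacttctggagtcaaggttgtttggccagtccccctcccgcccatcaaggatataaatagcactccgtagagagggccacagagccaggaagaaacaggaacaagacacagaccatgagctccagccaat
Counted from the start site, the first base of the match lies at -50 in Pes1, at 31 in Ebna1bp2, at -156 and -1 in Mybbp1a, at -21 in Trib3, at -143 in Fgf21 and at -199 in Nr0b2.

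The genes shown for their promoters moved as follows. Ebna1bp2, a nucleolar assembly factor, fell by 0.87 ± 0.20 and Mybbp1a, a nucleolar MYB-binding protein, by 0.86 ± 0.16. Both calls were lost in a fit of the 5 rats alone (adjusted p = 0.146 and 0.0571). Trib3, a pseudokinase that ATF4 induces, had 7.99, 8.32 and 7.30 in combination rats, against 9.23 and 9.02 in galactosamine rats and 6.96 to 7.46 in vehicle rats. It fell by 1.25 ± 0.34 (adjusted p = 0.00574), with -1.40 and -1.38 on its other 2 probe sets, and not without rat26 (adjusted p = 0.0705). Fgf21, a stress-induced liver hormone, fell by 1.39 ± 0.40 (adjusted p = 0.00843), a call lost without rat26 (adjusted p = 0.0514), rat27 (0.0713) or rat70 (0.0547).

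Of 20 genes of pyrimidine and galactose metabolism 4 fell (20%, against 16.9% of all genes) and 3 rose (15%, against 11.6%), with 1 rising without rat27. Cad, which starts pyrimidine synthesis, had 7.58, 6.98 and 6.86 in combination rats, against 8.89 and 8.76 in galactosamine rats and 6.97 to 7.19 in vehicle rats, and fell by 1.68 ± 0.17 (adjusted p = 1.35e-09). Its second probe set differed by -0.25. Ugp2, which makes UDP-glucose, fell by 1.27 ± 0.21 and Uck1, a uridine kinase, by 1.17 ± 0.12. For Ugp2 the combination rats (10.17, 10.94 and 10.54) lay below the galactosamine rats (11.78 and 11.86) and the vehicle rats (11.17 to 11.59).

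Of 30 proteasome subunits 13 rose (43.3%, against 11.6% of all genes) and 0 fell, with a median of 0.37, and 5 rose in a fit of the 5 rats alone. The core subunit Psmb7 had 10.22, 9.79 and 9.67 in combination rats, against 8.70 and 9.12 in galactosamine rats and 9.26 to 9.31 in vehicle rats, a rise of 0.98 ± 0.19. Psma1 rose by 0.82 ± 0.16 and the lid subunit Psmd11 by 0.77 ± 0.13. In rats given nevirapine alone, 28 of the 30 subunits were higher than in vehicle rats at 48 h (10.8% of all genes) and 5 at 15 d (4.99%). At 48 h the GAPDH difference was 0.860 in nevirapine rat40, 0.014 in rat41 and 0.098 in rat42, against 0.483 to 0.744 in vehicle rats. Its part in the 48 h count was not tested. The departure from nevirapine alone at 15 d was positive in 2 subunits (5.44% of all genes). That at 48 h was positive in 1 (14% of all genes) and negative in 6 (19.5%).

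Of 20 glucose genes 8 fell (40%, against 16.9% of all genes) and 0 rose, with a median of -0.44, and only 3 fell without rat26 or rat70, and 4 without rat27. Aldoa, a glycolytic aldolase, fell by 1.09 ± 0.13 (adjusted p = 4.46e-08), with 9.98, 9.58 and 9.93 in combination rats, against 10.94 and 10.90 in galactosamine rats and 9.23 to 9.31 in vehicle rats. Of 26 genes of fat synthesis and storage 6 fell (23.1%, against 16.9% of all genes) and 0 rose. Without rat26 or rat27, 2 fell, and without rat70 or rat72, 2 rose. Lpin1, a phosphatidate phosphatase, had 9.07, 9.17 and 9.32 in combination rats, against 10.42 and 10.78 in galactosamine rats and 9.37 to 10.67 in vehicle rats (-1.41 ± 0.35, adjusted p = 0.00263; 0.0606 without rat27). Aass, of lysine breakdown, rose by 2.28 ± 0.30, with 11.50, 11.60 and 11.39 in combination rats, against 8.96 and 9.48 in galactosamine rats and 10.97 to 11.37 in vehicle rats. Of 37 genes of amino acid breakdown and urea synthesis 5 rose (13.5%, against 11.6% of all genes) and 3 fell (8.11%, against 16.9%). Of 28 of fatty acid oxidation 3 rose (10.7%) and 4 fell (14.3%). Without 1 rat these counts ran from 3 to 8 and 0 to 2, and from 0 to 5 and 1 to 6. Without rat26, 0 oxidation genes rose and 1 fell, and without rat27, 0 amino acid genes fell.

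Over all genes, 11.6% were called higher and 16.9% lower. Immune cell marker lists lay below both shares, apart from that of B and plasma cells. Of 11 B and plasma cell markers 0 rose and 2 fell (18.2%), and 7 had both group means below background. The shares were 6.06% and 12.1% for macrophage and monocyte markers and 3.57% and 7.14% for T and NK cell markers. They were 9.09% and 0% for neutrophil genes and 5% and 10% for mast cell and eosinophil markers. Markers of resident Kupffer cells, the liver's macrophages, gave no call: 0 of 10 rose or fell, with a median of -0.24. Their summed signal was 12.44 to 13.10 in combination rats, 12.98 to 12.99 in galactosamine rats and 11.43 to 12.42 in vehicle rats. Of 33 macrophage and monocyte markers 2 rose and 4 fell (1 and 0 without rat27, 1 and 7 without rat72). Cd14, the endotoxin co-receptor, had 10.22, 10.58 and 10.24 in combination rats, against 7.92 and 8.40 in galactosamine rats and 10.00 to 10.41 in vehicle rats, a rise of 2.19 ± 0.26 (adjusted p = 2e-08). Again the galactosamine rats were the ones apart from vehicle. Of 28 T and NK cell markers 1 rose and 2 fell (0 and 0 without rat26), and 14 lay below background in combination rats, 13 in galactosamine rats. Of 11 neutrophil genes 1 rose, and 8 lay below background in combination rats and 9 in galactosamine rats. Hdc, the histamine-forming enzyme, fell by 2.38 ± 0.40 (adjusted p = 1.71e-05), with 6.06, 6.77 and 6.99 in combination rats, against 9.56 and 8.42 in galactosamine rats and 5.89 to 7.12 in vehicle rats. It stands on a list of 20 mast cell and eosinophil markers, of which 1 rose, 2 fell (4 without rat27) and 14 were below background in both groups.

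Interferon genes separated the combination rats from each other. Type I genes were called 13.8% higher and 27.6% lower and interferon-gamma genes 21.1% and 10.5%, against 11.6% and 16.9% of all genes. Of 29 type I interferon-stimulated genes 4 rose and 8 fell, but 1 rose and 13 fell without rat70, and 0 rose and 1 fell without rat26. Isg15, a ubiquitin-like protein, had 8.61 in rat70 and 6.42 and 6.97 in the other two, against 8.34 and 8.63 in galactosamine rats and 6.14 to 6.26 in vehicle rats. Its adjusted p was 0.0167 with all rats and 3.41e-05 without rat70. The call was lost without rat71 (0.18), rat72 (0.0725), rat26 (0.0525) or rat27 (0.152), and in a fit of the 5 rats alone (0.226). Oasl, an antiviral 2-5A synthetase-like protein, fell by 2.01 ± 0.21 (adjusted p = 1.23e-09) with no overlap, at 6.22, 5.72 and 5.67 in combination rats, against 7.90 and 7.86 in galactosamine rats and 5.35 to 5.44 in vehicle rats. Of 19 interferon-gamma and class I genes 4 rose and 2 fell, with 0 and 0 without rat27 and 1 and 2 without rat72. The GTPase Igtp had 8.89, 7.26 and 9.84 in combination rats, against 7.26 and 6.87 in galactosamine rats and 6.62 to 6.82 in vehicle rats (1.60 ± 0.40, adjusted p = 0.00261). Its adjusted p was 0.0589 without rat27 and 0.158 in a fit of the 5 rats alone. The groups touch in rat71 and rat26.

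**Figure D4:**
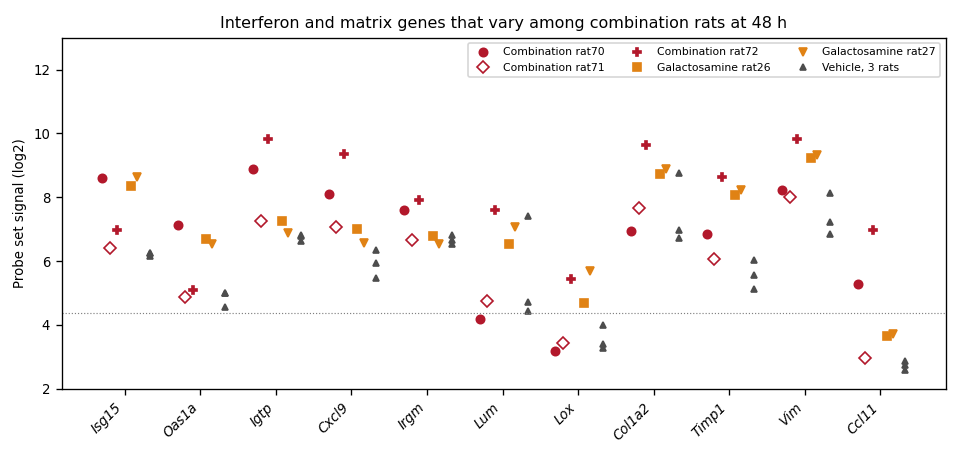
Probe set signal (log2) of 11 interferon and matrix genes at 48 h, with a symbol per combination rat, then the galactosamine rats and the vehicle rats; the dotted line is the background level. Rat70 is highest for Isg15 and Oas1a, rat72 for the other 9 genes among combination rats.

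Of 39 collagen and matrix genes 0 rose and 2 fell (5.13%, against 16.9% of all genes), and 7 fell without rat72. Stellate cell markers were called 8% higher and 4% lower and TGF-beta genes 17.4% and 8.7%, against 11.6% and 16.9% of all genes. Fn1, fibronectin, which hepatocytes also secrete, fell by 0.70 ± 0.13 (adjusted p = 5.01e-05), with all combination rats below both galactosamine rats and below the vehicle range. The fibril-binding proteoglycan Lum had 4.18, 4.74 and 7.59 in combination rats, against 6.52 and 7.08 in galactosamine rats and 4.43 to 7.40 in vehicle rats (adjusted p = 0.284). Timp1, an inhibitor of matrix proteases, had 6.85, 6.07 and 8.63 in combination rats, against 8.07 and 8.22 in galactosamine rats and 5.13 to 6.03 in vehicle rats (adjusted p = 0.07). In both, rat72 lay above the galactosamine rats and its group mates below them. Of 25 stellate cell and myofibroblast markers 2 rose and 1 fell, with 0 rising and 4 falling without rat72, and 0 and 0 without rat26. Of 23 TGF-beta pathway genes 4 rose and 2 fell, with 2 and 1 without rat27 and 4 and 4 without rat72. Pmepa1, a feedback inhibitor that TGF-beta induces, fell by 1.23 ± 0.26 (adjusted p = 0.000343), and the co-receptor Eng, also an endothelial marker, rose by 0.58 ± 0.13 (adjusted p = 0.000917).

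G1/S genes were called at shares near those of all genes, 10.3% higher and 13.8% lower, against 11.6% and 16.9%. Mitosis genes gave few calls (4.44% and 0%), and 15 of them had both group means below background. Of 29 genes of G1/S and DNA replication 3 rose and 4 fell, but 11 rose and 2 fell without rat72, 0 rose and 9 fell without rat70, and none rose without rat26 or rat27. Rfc3, a clamp loader subunit, had 6.28, 5.14 and 4.65 in combination rats, against 7.14 and 7.17 in galactosamine rats and 5.20 to 5.39 in vehicle rats (-1.80 ± 0.29, adjusted p = 9.82e-06). Mcm10, of origin firing, fell by 1.20 ± 0.19, and its second probe set changed by -1.30. Of 45 genes of G2/M and mitosis 2 rose and 0 fell (0 and 0 without rat27).

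The same comparison at 24 h asks whether the nevirapine effect differed between both times. The difference between the 48 h and the 24 h effect passed in 3002 genes (21.1%), 1304 positive (9.17%) and 1698 negative (11.9%). A fit of only these groups called 822, and a fit with the GAPDH difference as a covariate called 2514. Of 23 bile acid genes 10 were negative and 0 positive, of 28 fatty acid oxidation genes 16 and 0, of 37 amino acid genes 12 and 1, and of 10 Kupffer cell markers 9 and 0. At 24 h itself 17, 20, 21 and 9 genes of these lists had been higher in combination rats (15.6% of all genes). Of 25 immediate early genes 10 were positive and 0 negative, and 15 had been lower at 24 h (21.3% of all genes).

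Cyp7a1 turned its direction. At 24 h it had 11.00, 10.82 and 10.70 in combination rats, against 5.88, 6.54 and 3.59 in galactosamine rats and 9.50 to 10.79 in vehicle rats, a rise of 5.50 ± 0.69. The 48 h effect minus the 24 h effect was -8.27 ± 1.03 (adjusted p = 3.83e-07). Between both times it was the galactosamine rats that changed place, below vehicle at 24 h and above it at 48 h. Rgn, the calcium-handling regucalcin, did likewise. It had 9.89, 10.32 and 9.81 in combination rats at 24 h, against 7.52, 9.12 and 6.91 in galactosamine rats, and 10.66, 11.12 and 11.69 at 48 h, against 12.43 and 12.30 (difference of effects -3.36 ± 0.42, adjusted p = 3.83e-07). Plin5, a lipid droplet protein, gave 1.39 at 24 h and -1.16 at 48 h (difference of effects -2.56 ± 0.33, adjusted p = 7.67e-07).

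Jun and Sema3c turned the other way. Jun had 8.00, 8.59 and 9.90 in combination rats at 24 h, against 10.34, 10.44 and 11.43 in galactosamine rats and 9.24 to 10.11 in vehicle rats, so that its effect was -1.90 at 24 h and 2.13 at 48 h (difference 4.04 ± 0.59, adjusted p = 5.18e-06). Sema3c, a guidance and growth signal, had 8.40, 6.84 and 6.25 in combination rats at 48 h, against 4.16 and 4.47 in galactosamine rats and 4.52 to 5.64 in vehicle rats, at least 6.92-fold higher. At 24 h it had 6.39, 6.19 and 6.18 in combination rats, against 6.88, 7.42 and 7.54 in galactosamine rats. The difference of effects was 3.87 ± 0.61 (adjusted p = 1.67e-05), with the galactosamine mean at 48 h under background. Nevirapine alone changed Sema3c by 2.65 at 15 d.

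Inmt, Rnase1l2 and Mbl2 differed between the times with no opposite calls. Inmt had 5.02, 5.45 and 5.53 in combination rats at 24 h, against 4.37, 4.42 and 4.33 in galactosamine rats and 6.21 to 7.26 in vehicle rats. The effect of 0.96 did not pass there (adjusted p = 0.171), and the difference of effects was 4.29 ± 0.80 (adjusted p = 0.000176), with the galactosamine mean at 48 h under background. Rnase1l2 overlapped at 24 h, with 5.35, 4.59 and 4.20 in combination rats, against 5.12, 3.78 and 4.78 in galactosamine rats (difference of effects -3.04 ± 0.32, adjusted p = 1.33e-08). Mbl2, a lectin of the complement system, was higher in combination rats at both times, by 2.74 at 24 h and 0.89 at 48 h (difference of effects -1.86 ± 0.29, adjusted p = 1.25e-05). The call at 48 h was lost without rat27 (adjusted p = 0.055).

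**Figure D5:**
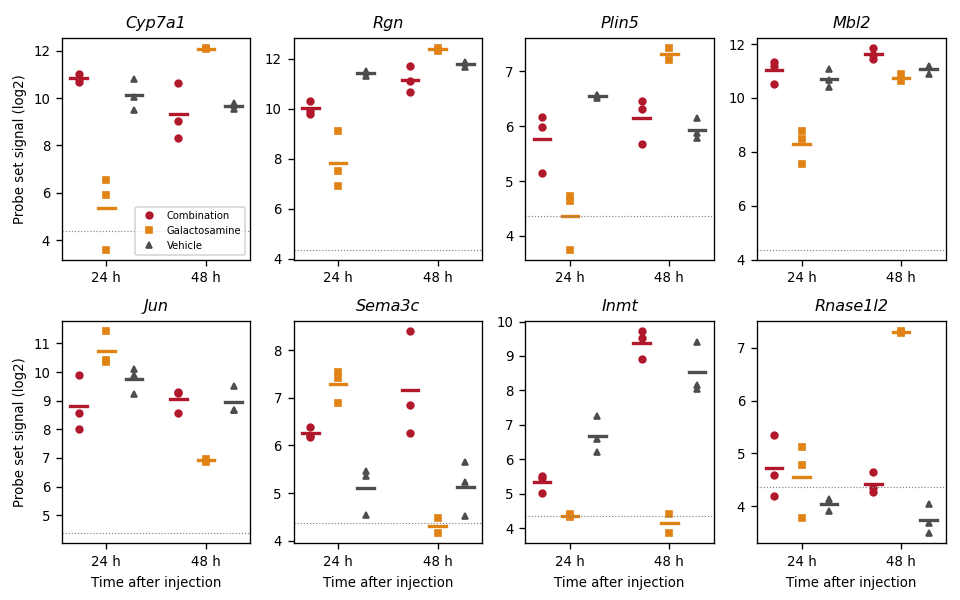
Probe set signal (log2) of 8 genes in combination, galactosamine and vehicle rats (left to right at each time) at 24 h and 48 h after the injection, with a bar at each mean and a dotted line at the background level. For Cyp7a1, Rgn and Plin5 the galactosamine rats lie below the combination rats at 24 h and above them at 48 h, and for Jun and Sema3c the reverse.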

How the data were processed

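RNA from 50 livers, 1 Affymetrix rat array per rat, was measured. The authors deposited log2 signals per probe set, already brought to 1 scale, and RMA and limma are named in the submitters' processing notes with no version. They were read with no further scaling or filter. Groups came from sample titles. Of 31099 probe sets, 20826 have 1 gene symbol, 436 several, 57 are controls and 9780 have no entry. Limma 3.58.1 in R 4.3.3 fitted 17 group means to 50 arrays, eBayes moderated the spread, and p-values were adjusted over 20826 probe sets by Benjamini-Hochberg. Genes were counted by their highest-mean probe set at adjusted p under 0.05. Where a group mean is under log2 4.37, the change is a bound. Named genes are, by rule, the 12 called genes without overlap that rose most, the 12 that fell most (symbols that start with LOC, RGD or MGC left out), and 4 or fewer members per list, by size of change; the text names part of these, and those outside it are marked. The members and lists were chosen with earlier results of these data known. In simulated data 89% of genes moved 2-fold were called. The simulation gave every array the same spread per probe set and left out the wider spread among combination rats. The share for the real groups was not tested. The number of arrays limits the precision. Alternatives were other fits, filters, normalizations and each rat left out. Tables and plots used pandas 2.3.3, Numpy 2.4.6 and matplotlib 3.10.9 under Python 3.11.15.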

Additional observations from a re-analysis of the deposited data

Results flagged for a closer look

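Each of these results differs between contrasts by a test of the difference itself. Against nevirapine alone at 48 h the nevirapine effect after galactosamine differed in 4770 genes, against nevirapine alone at 15 d in 1895, and between 48 h and 24 h in 3002. Against nevirapine at 15 d the difference of differences was log2 2.07 for Insig2, 3.61 for Inmt, 2.08 for Cyp3a9, 0.99 for Ugt2b1, 2.25 for Nr0b2 and 1.54 for Abcb11, all positive, and -4.84 for Lama5 and -2.09 for Krt18 (adjusted p = 2.24e-08 for Lama5 and 3.86e-06 for Krt18). Between 48 h and 24 h it was -8.27 for Cyp7a1, -3.36 for Rgn, -2.56 for Plin5, -3.04 for Rnase1l2 and -1.86 for Mbl2, and 4.04 for Jun, 3.87 for Sema3c and 4.29 for Inmt. In the values for Inmt and Sema3c, 1 group mean is under background. Single rats were not tested as outliers in these groups of 2 or 3.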

How the results depend on the processing

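The count of 4051 genes called in combination against galactosamine was 1760 in a fit of only these groups. It ran between 2284 and 4428 when each rat was left out, falling most without rat27 (2284) and rat26 (2449). The 4770 genes of the contrast with nevirapine alone at 48 h ran between 3150 (without rat27) and 5377. The 1895 of the contrast with 15 d were 3965 with array weights and ran between 1050 (without rat27; 1152 without rat26) and 2577. The 3002 of 48 h against 24 h were 822 with only these groups and ran between 2003 and 3401. The share of called genes that were higher, 40.8%, was 25.6% with only these groups, 33.4% without the dimmest 40% and 30.9% without rat27. Of 151 named or chosen genes called, 78 kept their call in every alternative and 73 lost it in at least 1, 60 of them without 1 rat, and no direction was reversed. A gene that the filter of the dimmest 40% left out was counted over the other alternatives only. No paired analysis was possible because the rats of the groups carry different numbers. The cause of these moves was not tested, beyond fewer rats in the fits that leave some out.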
